A study of Mus musculus with 10 samples.

Results

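The 10 genes described here encode chaperones and folding factors of the endoplasmic reticulum (ER) and targets of the transcription factors ATF6 and XBP1. They were chosen by symbol, as *Hspa5*, *Hsp90b1*, *Calr*, *Pdia4*, *Creld2*, *Dnajb9*, *Dnajc3*, *Sdf2l1*, *Herpud1* and *Xbp1*, and each had 1 row among the 43346 genes of the deposited count table. The libraries came from mouse O9-1 cells, an established line of cranial neural crest origin that is described as tetraploid, grown on Matrigel in preconditioned medium. There were 4 biologically independent wildtype samples, 3 Kat5 ko clones and 3 Ep400 ko clones. The clones were transfected, sorted and grown up from single cells, steps that the study does not describe for the wildtype samples. Effects of these steps cannot be told apart from those of the knockout. *Kat5* encodes the acetyltransferase and *Ep400* the remodeling ATPase of the Tip60/Ep400 complex. Each clone is a separate CRISPR/Cas9-edited line, so that a clone is both the replicate and a source of variation of its own. By the study's description all Kat5 ko clones carried insertions or deletions in every *Kat5* allele, Ep400/1 carried frameshifts in every *Ep400* allele, and Ep400/2 and Ep400/3 each kept at least 1 allele with a deletion in frame at the ATP binding site. Each knockout was set against wildtype to ask what the loss of the respective subunit did to gene expression.

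The lumen of the ER is where secreted and membrane proteins are folded. When unfolded proteins accumulate, 3 sensors in the ER membrane start the unfolded protein response (UPR). Activated ATF6 is cut in the Golgi and releases a transcription factor, activated IRE1 splices *Xbp1* mRNA so that it encodes an active factor, and activated PERK slows translation while ATF4 is made. ATF6 and spliced XBP1 raise the genes for chaperones, disulfide isomerases and components of ER-associated degradation, in part through promoter elements in which CCAAT and CCACG stand at a fixed distance. Cells of the neural crest and its mesenchyme secrete much extracellular matrix and depend on this folding machinery.

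Total counts were between 30968945 and 48301792 per library, of which mitochondrial genes took 0.893% to 3.24%. The 10 genes together took 0.167% of the counts in Ep400/2 and 0.405% in Kat5/3, the lowest and the highest share. Levels are given as CPM, the counts scaled to library size with TMM factors over all libraries. *Kat5* had 53.8 ± 3.98 CPM in wildtype (SD, n = 4) and 20.8 ± 3.83 in Kat5 ko clones (SD, n = 3), and *Ep400* had 159 ± 3.91 in wildtype and 58.6 ± 3.47 in Ep400 ko clones, so both targeted genes were low in the libraries labelled for them. Of 12 neural crest markers, 10 were counted in every library, *Tfap2b* had at least 29 raw counts in wildtype and 0 in some clones of both knockouts, and *Sox10* had 0 counts throughout. *Pdgfra* stood at 123 CPM in wildtype, 78.1 in Kat5 ko and 588 in Ep400 ko clones. The smooth muscle genes *Acta2* and *Tagln* stood apart in Kat5/1, at 18313 and 6533 raw counts against at most 691 and 54 in any wildtype library. *Pou5f1* of the pluripotency genes and *Rbfox3* of the neuronal genes had 0 counts throughout, but *Sox2* (41.6, 42.8 and 89.2 CPM in wildtype, Kat5 ko and Ep400 ko) and *Tubb3* (3.64, 6.25 and 12.9) of the same lists were counted in every library. The part of these shifts in the results was not tested.

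The promoters of these genes are shown first, because ATF6 and XBP1 are known to act through such elements, which some of the genes hold and others do not. Promoter windows were those of RefSeq on GRCm38.p6, from 250 bases before to 50 bases after the annotated start, and all 10 genes had one. The ER stress response element (ERSE) was searched as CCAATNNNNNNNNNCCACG on both strands. It was found in 39 of 32851 windows, which is 0.119%, and in 5 of the 10 genes. The matches are given with 10 bases on either side, on the strand that reads CCAAT first, with the parts that were required to match in capitals.
Hspa5, chr2:34772015-34772053, plus strand: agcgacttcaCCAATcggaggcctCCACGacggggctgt
Hsp90b1, distal match, chr10:86705628-86705666, minus strand: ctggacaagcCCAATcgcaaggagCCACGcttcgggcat
Hsp90b1, proximal match, chr10:86705523-86705561, plus strand: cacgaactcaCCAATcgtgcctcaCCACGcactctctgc
Calr, chr8:84847065-84847103, plus strand: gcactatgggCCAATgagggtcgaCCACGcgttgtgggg
Creld2, chr15:88819510-88819548, minus strand: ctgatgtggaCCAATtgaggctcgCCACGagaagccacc
Dnajc3, chr14:118937817-118937855, plus strand: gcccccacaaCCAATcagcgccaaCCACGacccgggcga

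*Hsp90b1* was the gene with more than 1 such match, on opposite strands. All of them lay between positions −212 and −47, counted from 0 at the annotated start. In *Hspa5*, *Dnajc3* and the distal match of *Hsp90b1* the element read along the gene's own strand, and in *Calr*, *Creld2* and the proximal match of *Hsp90b1* against it.

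*Herpud1* had no ERSE in its window but held 2 other words, which are shown because *Herpud1* was 1 of the genes that edgeR called in Ep400 ko clones. The compact element ERSE-II, searched as ATTGGNCCACG, was in 12 windows (0.0365%). The C/EBP-ATF response element (CARE), searched as TTGCATCA and known as a binding site of ATF4, was in 294 windows (0.895%). Capitals again mark the searched letters.
Herpud1, ERSE-II, chr8:94386367-94386397, plus strand: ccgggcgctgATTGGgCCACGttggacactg
Herpud1, CARE, chr8:94386307-94386334, plus strand: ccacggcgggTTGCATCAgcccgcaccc

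*Hspa5* also held the CRE-like word TGACGTGA, which was in 145 windows (0.441%). It is shown because *Hspa5* was the single chaperone gene with it.
Hspa5, CRE-like, chr2:34771923-34771950, plus strand: ggcgtagcaaTGACGTGAgttgcggagg

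The UPR element, searched as TGACGTGG, was in 222 windows (0.676%) and in 0 of the 10. Its reverse complement contains CCACG, as does ERSE-II, so these words overlap by construction. Single CCAAT and CCACG words are common, in 37.4% and 32.8% of all windows, and each was in 9 of the 10 genes. *Xbp1* held none of the words searched in this window. A match is a description of letters and no measurement of binding.

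**Figure D1:**
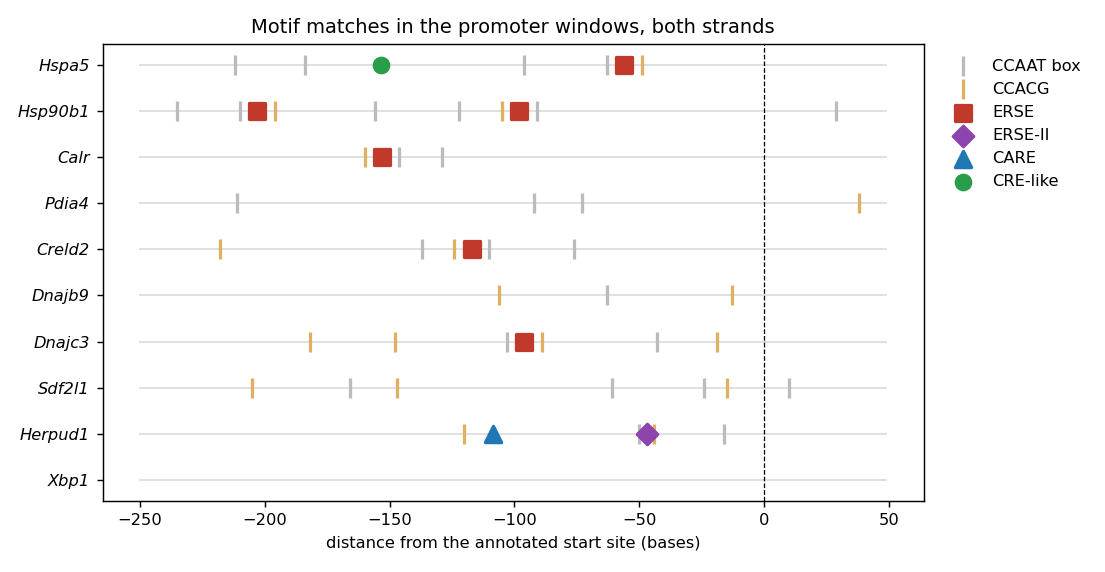
Promoter windows of the 10 genes from 250 bases before to 50 bases after the annotated RefSeq start (dashed line), with distance in bases on the x axis and each mark at the centre of a match on either strand. ERSE matches (red squares) lie in *Hspa5*, *Hsp90b1*, *Calr*, *Creld2* and *Dnajc3*, ERSE-II and CARE in *Herpud1*, and *Xbp1* has no mark.

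The genes differed widely in level. Per kilobase of merged exons, wildtype cells had most *Calr* (277 ± 40.2 CPM per kb, SD, n = 4) and *Hsp90b1* (235 ± 37.5), whose ranges overlapped. *Hspa5* followed at 165 ± 20.5 and *Pdia4* at 83.4 ± 16.5, each apart from its neighbours. *Creld2*, *Herpud1* and *Xbp1* came next at 30.1, 28.2 and 24.4 CPM per kb, where the range of *Herpud1* overlapped both others and those of *Creld2* and *Xbp1* did not overlap. *Dnajc3* and *Sdf2l1* overlapped at 16.8 and 13.8. *Dnajb9* was lowest at 4.25 ± 0.84, below every other range. *Calr*, *Hsp90b1*, *Hspa5*, *Pdia4* and *Creld2* kept this order of means in both knockouts. *Dnajc3* stood above *Herpud1* and *Xbp1* in both, at 21.3 CPM per kb against 17.9 and 17.5 in Kat5 ko clones and at 20.0 against 14.8 and 15.6 in Ep400 ko clones.

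The 10 genes summed to 2945 ± 363 CPM in wildtype (SD, n = 4), 3515 ± 772 in Kat5 ko clones (SD, n = 3) and 2123 ± 497 in Ep400 ko clones (SD, n = 3). Most of this is *Hspa5*, *Hsp90b1* and *Calr*. The sum was 3462, 2771 and 4312 CPM in Kat5/1, Kat5/2 and Kat5/3, and 2677, 1719 and 1971 in Ep400/1, Ep400/2 and Ep400/3, against 2460 to 3276 in wildtype. Ep400/1 and Kat5/2 lay within the wildtype range, and the other clones outside it.

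In Kat5 ko clones, none of the 10 genes differed from wildtype at an adjusted p of at most 0.05, the threshold for a call (quasi-likelihood test of edgeR, p adjusted after Benjamini-Hochberg over 13434 genes). Few genes did in the whole table, with 0.127% called higher and 0.372% called lower. DESeq2 also called 0 of the 10, beside 9.46% of all genes. At an unadjusted p of edgeR under 0.05 there were 2 of the 10, *Calr* and *Herpud1*, beside 2993 of all genes. The log2-fold changes ran from −0.69 to 0.38 with a median of 0.15, where the median over all genes was 3.2e-05. All 3 clones lay above the wildtype range for 2 of the 10, *Calr* and *Dnajc3*, and below it for 0, whereas 9.67% of all genes were above and 10.2% below. A differentially expressed gene (DEG) was counted here where a gene called by edgeR also reached 1 on the log2 scale in either direction and a mean normalised count above 100. The study set these limits on DESeq2 results, so that its DEGs are not the same set. By the count used here 0.387% of genes passed and none of the 10.

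In Ep400 ko clones edgeR called 2 of the 10, and DESeq2 called 5, where DESeq2 called 19.6% of all genes. DESeq2 called *Dnajb9* higher and *Calr*, *Pdia4*, *Herpud1* and *Xbp1* lower. By edgeR, *Dnajb9* rose 1.99-fold and *Herpud1* fell 1.91-fold, so that 1 was called higher and 1 lower. Of 13836 genes tested, edgeR called 8.09% higher and 5.76% lower. The median log2-fold change of the 10 was −0.51, against 0.043 over all genes, and 8 of the 10 had a negative value. At an unadjusted p under 0.05 were 6 of the 10, beside 4466 of all genes. The levels in every clone were under those of all wildtype samples for *Calr*, *Pdia4*, *Herpud1* and *Xbp1*, and over them for *Dnajb9* and *Dnajc3*, where 14.1% of all genes were below and 16.1% above. None of the 10 was a DEG, where 6.48% of genes were. Both comparisons use the same 4 wildtype libraries, so a high or low wildtype sample moves both. RNA of whole cultures was measured, in which fewer cells of a type and less RNA per cell cannot be told apart.

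**Figure D2:**
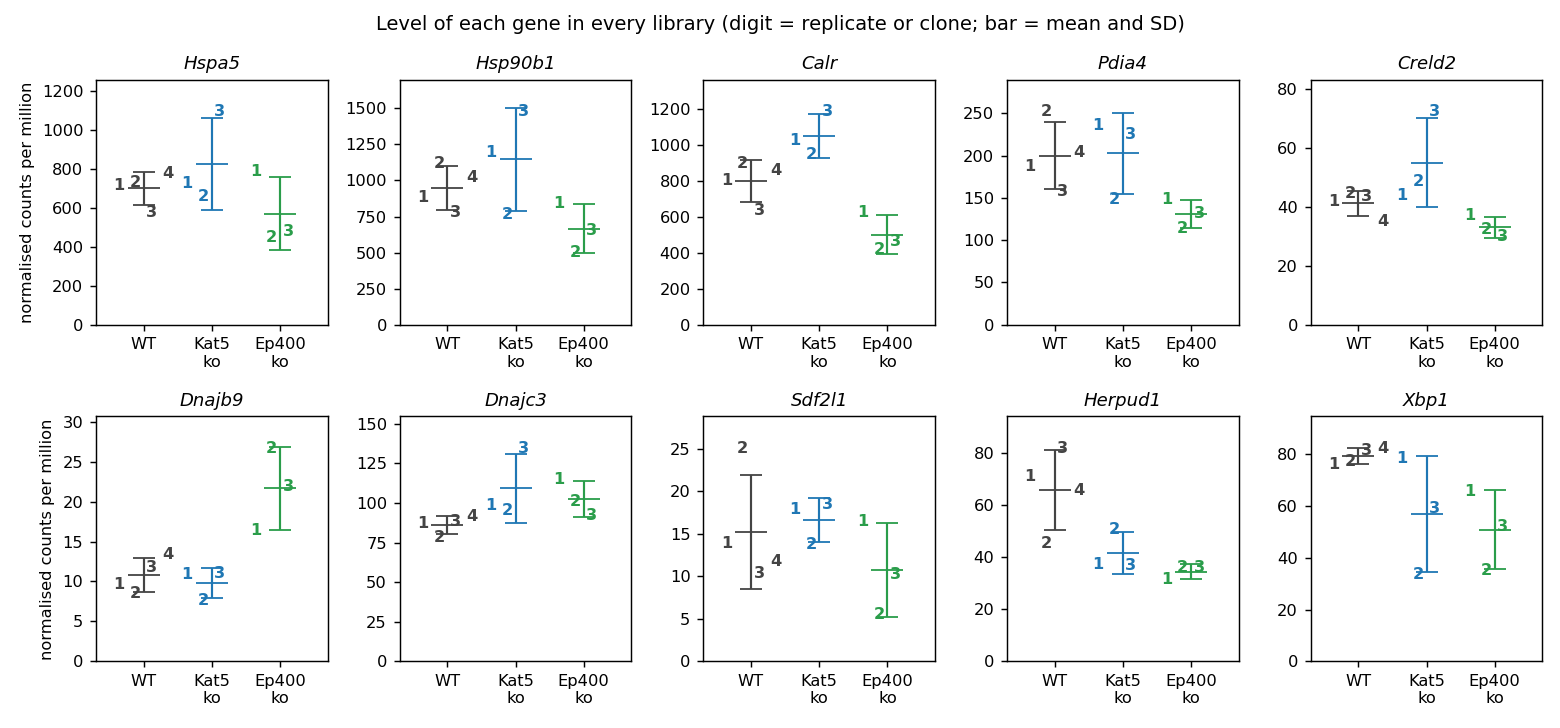
Normalised CPM (y axis, from 0) of each gene in all 10 libraries, with wildtype in grey, Kat5 ko in blue and Ep400 ko in green. Digits are the replicate or clone numbers, and bars give the mean and SD of a group (n = 4, 3 and 3). The Ep400 ko clones lie below all wildtype samples for *Calr*, *Pdia4*, *Herpud1* and *Xbp1* and above them for *Dnajb9* and *Dnajc3*.

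*Hspa5* (ENSMUSG00000026864, chromosome 2 from 34771970 to 34777547, plus strand) encodes BiP, the Hsp70 of the ER that also holds the UPR sensors inactive. It had 715, 732, 575 and 776 CPM in the wildtype samples, 723, 660 and 1094 in Kat5/1 to Kat5/3, and 785, 447 and 480 in Ep400/1 to Ep400/3. Kat5/3 was the highest of all libraries, and Ep400/1 lay just above the wildtype range while the other Ep400 ko clones lay below it. The changes on the log2 scale were 0.21 (standard error 0.20, edgeR adjusted p = 0.573) for Kat5 and −0.29 (0.23, adjusted p = 0.392) for Ep400, of which neither was called. Without Kat5/3, the value for Kat5 was −0.035.

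*Hsp90b1* (ENSMUSG00000020048, chromosome 10 from 86690209 to 86705509, minus strand) encodes GRP94, the Hsp90 of the ER, which folds integrins and Toll-like receptors. Wildtype samples had 879, 1116, 775 and 1023 CPM, Kat5 ko clones 1193, 766 and 1477, and Ep400 ko clones 839, 504 and 655. Both knockout groups overlapped the wildtype range, Kat5 ko clones on both sides of it and Ep400 ko clones at its lower end. The log2-fold changes were 0.24 (standard error 0.23, adjusted p = 0.570) and −0.51 (0.22, adjusted p = 0.142) by edgeR. For Kat5 the value was 0.030 without Kat5/3 and 0.47 without Kat5/2. The annotation places 3 other genes over it, among them a pseudogene on the opposite strand that shares 415 exonic bases, and reads of the latter could not be separated if counting ignored the strand.

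*Calr* (ENSMUSG00000003814, chromosome 8 from 84841850 to 84846934, minus strand) encodes calreticulin, the soluble lectin chaperone for glycoproteins and a calcium store of the ER lumen. Its levels were 805, 897, 635 and 859 CPM in wildtype, 1024, 947 and 1186 in Kat5 ko clones and 624, 418 and 463 in Ep400 ko clones. The 3 groups did not overlap, with Kat5 ko clones highest and Ep400 ko clones lowest, although Ep400/1 lay only just below the lowest wildtype sample. Against wildtype, the values were, on the log2 scale, 0.37 (standard error 0.16, edgeR adjusted p = 0.221) for Kat5 and −0.67 (0.20, adjusted p = 0.0557) for Ep400, both short of the threshold. *Calr* was called lower in Ep400 ko clones by DESeq2 (adjusted p = 0.0145) and by limma-voom (0.0494).

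*Pdia4* (ENSMUSG00000025823, chromosome 6 from 47796141 to 47813430, minus strand), a disulfide isomerase, had 187, 252, 157 and 203 CPM in wildtype samples. Kat5 ko clones had 236, 148 and 225, and Ep400 ko clones 148, 114 and 132. All Ep400 ko clones and Kat5/2 lay below the wildtype range. On the log2 scale the difference was −0.0090 (standard error 0.22, edgeR adjusted p = 0.984) for Kat5 and −0.61 (0.19, adjusted p = 0.0609) for Ep400. The latter was called by DESeq2 (adjusted p = 0.0260) and not by limma-voom (0.0626).

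*Creld2* (ENSMUSG00000023272, chromosome 15 from 88819646 to 88826683, plus strand), an ER stress-inducible protein with isomerase activity, had 41.7, 44.4, 43.4 and 35.1 CPM in wildtype, 43.9, 48.6 and 72.2 in Kat5 ko clones, and 36.8, 32.4 and 29.8 in Ep400 ko clones. Kat5/3 stood far above the other libraries, and 2 of the 3 Ep400 ko clones lay below the wildtype samples. Neither the change for Kat5 (0.38, standard error 0.19, adjusted p = 0.272) nor that for Ep400 (−0.32, 0.15, adjusted p = 0.178) was called by edgeR. Without Kat5/3, the value for Kat5 was 0.15. Genes of chromosome 15 as a whole had a median log2 difference of −0.35 in Kat5/1, 0.041 in Kat5/2 and 0.22 in Kat5/3.

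Among the cochaperones that work with BiP, *Dnajb9* (ENSMUSG00000014905, chromosome 12 from 44205559 to 44210326, minus strand) encodes ERdj4, which delivers misfolded proteins to degradation and helps BiP to silence IRE1. It had 9.68, 8.55, 11.7 and 13.4 CPM in wildtype, 10.9, 7.65 and 11.0 in Kat5 ko clones, and 16.4, 26.7 and 21.9 in Ep400 ko clones. Every Ep400 ko clone was above every other library, and the Kat5 ko clones overlapped the wildtype samples. *Dnajb9* rose by 1.00 on the log2 scale in Ep400 ko clones (standard error 0.24, edgeR adjusted p = 0.0274), while the value for Kat5 was −0.17 (0.24, adjusted p = 0.721). The call was lost, with unchanged direction, without wildtype sample 1 (log2-fold change 0.94, adjusted p = 0.0890) or wildtype sample 2 (0.90, 0.0724). Likewise it was lost without Ep400/2 (0.80, 0.0855) or Ep400/3 (0.98, 0.0525), and in the fit that used replicate numbers as a block (1.10, 0.0970). Over all genes that block gave 170 calls in place of 1917, so a loss there is not particular to *Dnajb9*.

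*Dnajc3* (ENSMUSG00000022136, chromosome 14 from 118937976 to 118981697, plus strand) encodes p58IPK, a BiP cochaperone also known as an inhibitor of PERK. Wildtype samples had 87.1, 78.4, 88.6 and 91.5 CPM, Kat5 ko clones 98.2, 95.3 and 134, and Ep400 ko clones 115, 101 and 91.9. All clones of both knockouts were above the wildtype samples, although Ep400/3 was so by a small margin that scaling by DESeq2's size factors removed. The log2-fold changes of 0.31 (standard error 0.15, adjusted p = 0.270) and 0.25 (0.13, adjusted p = 0.219) were not called by edgeR.

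*Sdf2l1* (ENSMUSG00000022769, chromosome 16 from 17130138 to 17132383, minus strand), a partner of BiP cochaperone complexes, varied most among wildtype samples, at 13.9, 25.1, 10.3 and 11.8 CPM. The Kat5 ko clones had 17.9, 13.7 and 18.4, and the Ep400 ko clones 16.5, 5.47 and 10.2. Kat5 ko clones were within the wildtype range, and Ep400/2 was far below it. The changes were 0.10 (standard error 0.32, adjusted p = 0.879) and −0.51 (0.43, adjusted p = 0.440) by edgeR, and the former was −0.038 without wildtype sample 3, in which genes of chromosome 16 had a median log2 difference of −0.30. With 1 library left out, the value for Ep400 ran from −0.96 (without Ep400/1) to −0.16 (without wildtype sample 2).

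*Herpud1* (ENSMUSG00000031770, chromosome 8 from 94386438 to 94395377, plus strand) encodes a membrane protein that assembles the HRD1 complex of ER-associated degradation. It had 71.0, 45.2, 81.8 and 65.5 CPM in wildtype, 37.3, 50.8 and 36.8 in Kat5 ko clones, and 31.4, 36.0 and 36.2 in Ep400 ko clones. All Ep400 ko clones lay below wildtype, as did Kat5/1 and Kat5/3, while Kat5/2 was above wildtype sample 2. *Herpud1* fell by 0.93 on the log2 scale in Ep400 ko clones (standard error 0.20, edgeR adjusted p = 0.0215), and its value in Kat5 ko clones was −0.69 (0.22, adjusted p = 0.135). The call for Ep400 was lost without wildtype sample 1 (−0.90, adjusted p = 0.0655) or wildtype sample 4 (−0.94, 0.0585) and with the replicate block (−0.90, 0.104). An antisense gene overlaps its locus but shares 0 exonic bases with it.

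*Xbp1* (ENSMUSG00000020484, chromosome 11 from 5520659 to 5525893, plus strand) encodes the transcription factor itself, and a count per gene does not separate the spliced from the unspliced form. Its levels were 76.1, 77.2, 81.1 and 82.1 CPM in wildtype, 78.2, 33.4 and 59.0 in Kat5 ko clones and 65.5, 34.9 and 51.9 in Ep400 ko clones. Wildtype samples were close together, and each Ep400 ko clone and 2 of the 3 Kat5 ko clones fell short of them. The log2-fold changes were −0.50 (standard error 0.26, adjusted p = 0.284) for Kat5 and −0.64 (0.20, adjusted p = 0.0681) for Ep400 by edgeR. Without Kat5/1, which lay within the wildtype range, the former was −0.81 and was called (adjusted p = 0.0420), and in that fit 2651 genes were called in place of 67. Without Kat5/2, the library with the lowest level, the value for Kat5 was −0.22 (edgeR adjusted p = 0.513). With every library, *Xbp1* was called lower in Ep400 ko clones by DESeq2 (adjusted p = 0.0310) and not by limma-voom (0.0589).

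The knockouts were also compared directly, since a call in 1 of them is no test of a difference. *Calr* was lower in Ep400 than in Kat5 ko clones by 1.09 on the log2 scale (−1.09, standard error 0.24, edgeR adjusted p = 0.0438), and was the single gene called and the single DEG among the 10. Over 13587 genes tested, 2.97% were called lower, 4.34% higher and 5.51% were DEGs. *Dnajb9*, with a difference of 1.11 (standard error 0.30, adjusted p = 0.0587), and *Creld2*, with −0.75 (0.24, adjusted p = 0.0830), were next and not called. DESeq2, which called 19.3% of all genes, called *Dnajb9* (adjusted p = 0.00794). A single edgeR fit of all 10 libraries, which called 25.1%, called both. Values for 9 of the 10 were negative, with a median of −0.60 against 0.0063 over all genes. The call for *Calr* was lost without Kat5/2 (adjusted p = 0.102), Kat5/3 (0.157), Ep400/1 (0.0545), Ep400/2 (0.123) or Ep400/3 (0.114), with library size alone as scaling (0.0534) and with the replicate block (0.0855), at differences between −1.29 and −0.96.

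**Figure D3:**
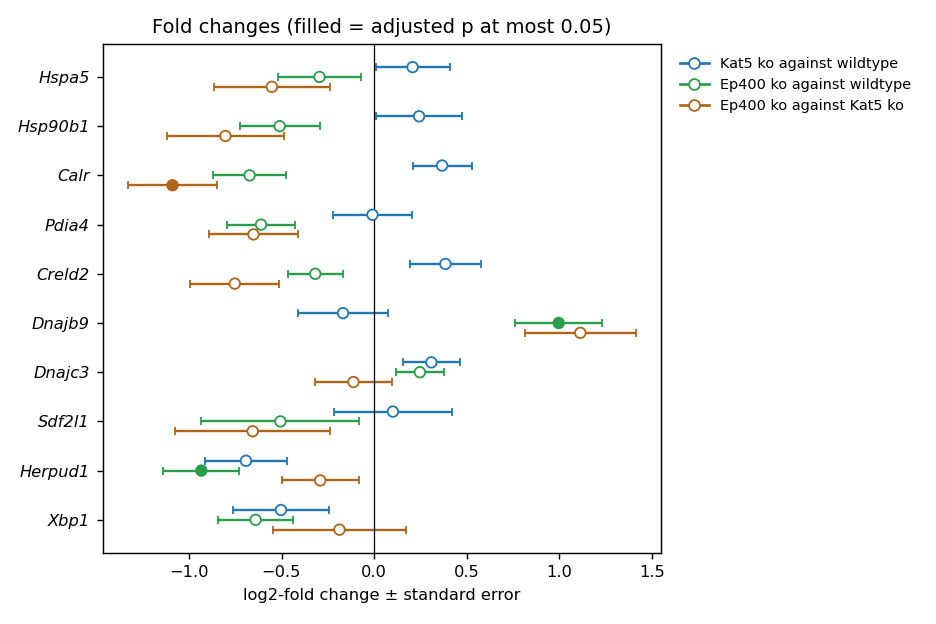
Log2-fold change with its standard error (x axis) of each gene in the comparisons of Kat5 ko with wildtype (blue), Ep400 ko with wildtype (green) and Ep400 ko with Kat5 ko (brown). Filled points passed an adjusted p of 0.05 and are *Dnajb9* (1.00) and *Herpud1* (−0.93) for Ep400 against wildtype and *Calr* (−1.09) between the knockouts.

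Clones of 1 knockout differed from each other. The median log2 difference of the 10 genes from the wildtype mean was 0.14 in Kat5/1, −0.18 in Kat5/2 and 0.47 in Kat5/3. It was −0.16 in Ep400/1, −0.81 in Ep400/2 and −0.53 in Ep400/3, while the wildtype samples lay between −0.12 and 0.095. Ep400/2 and Ep400/3 each had 8 of the 10 genes below the wildtype range and the other 2 above it. Ep400/1 had 4 below and 3 above. The share of all genes outside that range was not counted for single libraries, so these counts are description only.

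Across the 10 libraries of all groups the genes fell into those that varied with the rest and those that did not. The correlation of each gene's log2 CPM with the mean of the other 9 was 0.97 for *Hsp90b1*, 0.88 for *Hspa5* and *Pdia4*, 0.81 for *Calr*, 0.70 for *Sdf2l1*, 0.63 for *Creld2* and 0.55 for *Xbp1*. It was 0.11 for *Dnajc3*, −0.038 for *Herpud1* and −0.77 for *Dnajb9*. *Dnajb9* was highest in the Ep400 ko clones, of which Ep400/2 and Ep400/3 were low in most chaperones. It was lowest in Kat5/2, in which *Hsp90b1* and *Pdia4* were below the wildtype range and *Calr* was above it. These coefficients describe 10 libraries that share clones, groups and depth, and carry no test. Among 13312 other genes, the most similar to the mean of the 10 were *Gm7336* (0.96), *Glrx3* (0.96), *Hmgb1-ps3* (0.95), *Pla2g4a* (0.94) and *Elp2* (0.93), and the pseudogenes among them may share reads with their parent genes. Of the 50 most similar genes, 1 was in any of the 9 lists described next, *Serpinh1*, the collagen chaperone (0.87), which was chosen after its value was seen. The lists held 163 tested genes. Median coefficients were 0.63 for the oligosaccharyltransferase list, 0.51 for heat shock, 0.50 for the translocon and 0.44 for other folding enzymes. They were 0.38 for collagen folding, 0.36 for COPII, 0.066 for the PERK-ATF4 arm, −0.080 for degradation and −0.45 for UPR sensors. Over all other genes the median was −0.0056.

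Lists of further genes of the secretory pathway were written by function, and calls in them are edgeR's unless another tool is named. Over the 9 lists, 163 genes were tested. For Kat5 0% of them were called higher and 3.07% lower, and for Ep400 5.52% higher and 15.3% lower, beside the 8.09% and 5.76% of all genes given above for Ep400. Most calls were lost in at least 1 fit with a library left out. Of 34 list genes called for Ep400, 11 were called whichever library was left out, namely *Ddit4*, *Ero1a*, *Fkbp10*, *Magt1*, *Mbtps2*, *Mogs*, *Nupr1*, *P4ha2*, *Trib3*, *Vldlr* and *Wfs1*, and 1 was called with the replicate block. DESeq2 called all 34 and limma-voom 33. For Kat5, none of the 5 list genes called passed every such fit, DESeq2 called all 5, limma-voom 3, and the fit with the block 0. The other folding enzymes and chaperones of the ER had 31 genes tested, of which 0 were called in Kat5 ko clones (median log2-fold change 0.16) and 2 by DESeq2. The gene with the smallest p, *Hyou1*, the large Hsp70 that exchanges nucleotides on BiP, had 171 CPM against 112 in wildtype (0.58, edgeR adjusted p = 0.0969, DESeq2 adjusted p = 0.0392), with all clones above wildtype. In Ep400 ko clones 2 of the 31 were higher and 2 lower (median −0.057). The oxidase *Ero1a*, which supplies disulfides to the isomerases, fell by 0.77 and *Erp29* by 0.69. *Ero1b*, the paralog of *Ero1a*, rose by 0.96 and the receptor chaperone *Mesd* by 0.46. The call for *Mesd* was lost with any single library left out, that for *Ero1b* with any except Ep400/1, and that for *Erp29* without wildtype sample 1.

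The UPR sensors and activators numbered 10, with 0 called in Kat5 ko clones by edgeR (median −0.045) and 1, *Creb3l1*, lower by DESeq2 (adjusted p = 0.000316). In Ep400 ko clones 2 rose and 2 fell (median 0.36). *Atf6* rose by 0.59 on the log2 scale, its level being 147 ± 21.8 CPM in wildtype (SD, n = 4) and 221 ± 20.7 in the clones (SD, n = 3), which edgeR called (adjusted p = 0.0418). This call was lost with any single library left out except Ep400/3, and with the replicate block (0.144). The site-2 protease gene *Mbtps2*, whose product cuts ATF6, fell by 0.75, from 56.5 ± 5.14 to 33.7 ± 2.62 CPM (adjusted p = 0.0119). *Wfs1*, a negative regulator of ATF6, rose by 1.23, and the related factor *Creb3l1* fell by 2.60 from a level of 3.39 CPM, a call that was likewise lost except without Ep400/3.

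Genes of ER-associated degradation, of which 22 were tested, had 0 calls for Kat5 (median 0.035) and 2 for Ep400, both higher (median 0.081). These were *Herpud2*, the paralog of *Herpud1*, which rose by 0.73 (edgeR adjusted p = 0.0166), and the mannosidase-like *Edem3*, which rose by 0.50. The call for *Edem3* was lost with any single library left out, and that for *Herpud2* without wildtype sample 1 or 4, as was that for *Herpud1*. Over all genes, calls went from 1917 to 826 without sample 1 and to 873 without sample 4. These losses are thus not particular to the paralogs. *Herpud1* and *Herpud2* had changes of opposite sign.

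The translocon and signal peptidase (24 tested, median 0.11 for Kat5 and −0.13 for Ep400), the oligosaccharyltransferase and N-glycan transfer (15 tested, 0.29 and −0.11) and the COPII vesicle coat (17 tested, 0.11 and −0.053) had 0 calls by edgeR in Kat5 ko clones, while DESeq2 called *Srprb* of the first higher (0.66, adjusted p = 0.0156). In Ep400 ko clones *Spcs3* and *Srp68* of the first list fell, by 0.73 and 0.57. Of the second, 4 fell, with *Magt1* (−0.88), *Mogs* (−0.79), *Ostc* (−0.62) and *Krtcap2* (−0.56). Of the third, *Sec23a*, an inner coat subunit, fell by 0.82. None in these lists was called higher. Of these 7 genes *Magt1* and *Mogs* were called in every fit with 1 library left out.

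Of the lists, the PERK-ATF4 arm held the calls that edgeR made in Kat5 ko clones. This list was chosen with earlier results of these data known, so its calls are no independent finding. The study gave RT-PCR primers for *Asns*, *Ddit4* and *Nupr1* of this list. Of 14 genes, 5 fell by edgeR (10 called by DESeq2) and all 14 had negative values (median −1.35). Over all genes edgeR called 0.372% lower, and DESeq2 called 9.46% in either direction. *Trib3*, a pseudokinase induced by ATF4, fell by 3.70, from 44.1 to 3.47 CPM (edgeR adjusted p = 0.0282), *Chac1* by 2.65, *Nupr1* by 2.35 and *Vldlr* by 2.02. The fifth, *Asns*, the asparagine synthetase gene, fell by 1.29 and is named after its value was seen. In Ep400 ko clones 4 fell and 1 rose (median −0.57). *Nupr1* fell by 2.41, *Trib3* by 2.40, *Ddit4* by 1.99 and *Asns* by 1.60, and *Vldlr* rose by 1.12. The calls for Kat5 depend on single libraries, since 1 gene in the whole table was called without wildtype sample 1 and 2 without wildtype sample 4.

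The levels of *Herpud1* can be set beside those of this arm. The mean log2 difference of the 14 genes was −1.40, −1.52 and −1.32 in Kat5/1 to Kat5/3 and −0.69, −0.63 and −1.08 in Ep400/1 to Ep400/3. Among wildtype samples it was lowest in sample 2 (−0.51) and highest in sample 3 (0.58), the same samples in which *Herpud1* was lowest and highest. Over the 10 libraries the correlation of *Herpud1* with the mean of the arm was 0.74, the highest of the 10 genes. It was 0.52 for *Xbp1* and between −0.47 and 0.039 for the rest, and these coefficients carry no test. Within and between the knockouts the order was different. Among Kat5 ko clones *Herpud1* was highest in Kat5/2 (−0.34), where the arm was lowest, among Ep400 ko clones it was lowest in Ep400/1 (−1.03) and the arm in Ep400/3, and the arm was lower in Kat5 ko than in Ep400 ko clones, with *Herpud1* the other way. Among wildtype samples, *Hsp90b1*, *Calr*, *Pdia4* and *Sdf2l1* had the reverse order, with sample 2 highest and sample 3 lowest. The link between the CARE word in the *Herpud1* promoter and this pattern was not tested. Of other genes with that word, 73 were tested for Kat5, with 0 called higher and 4 lower (median −0.21). These were *Jdp2* and, already counted in the arm, *Chac1*, *Nupr1* and *Vldlr*. For Ep400 75 were tested, with 6 higher and 15 lower (median −0.14), among them again *Nupr1* and *Vldlr*. Over all genes 0.127% were called higher and 0.372% lower for Kat5, and 8.09% and 5.76% for Ep400. Of 11 other tested genes with an ERSE, 0 were called for Kat5 (median −0.037), and 1 was higher and 2 lower for Ep400 (median −0.39). ERSE-II was in 8 other tested genes, with 0 called for Kat5 (median 0.16) and 1 lower for Ep400 (median 0.025).

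**Figure D4:**
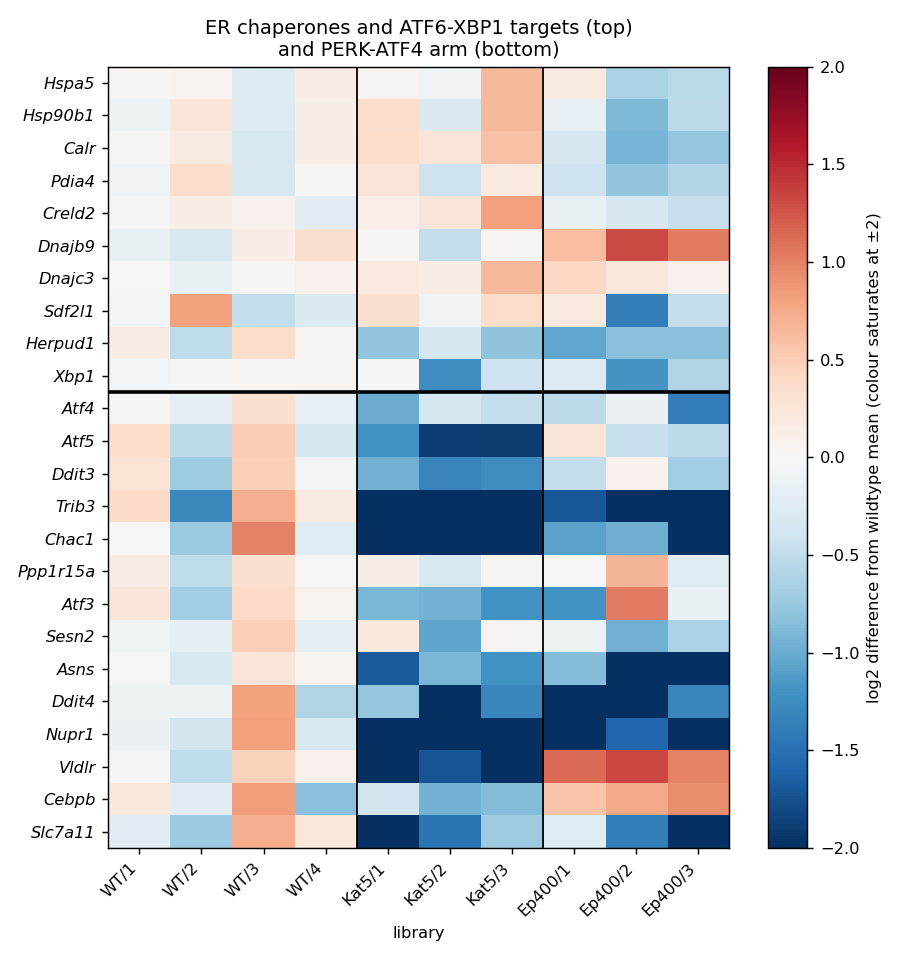
Log2 difference from the wildtype mean (colour, saturating at ±2) of the 10 genes (above the line) and of 14 genes of the PERK-ATF4 arm (below) in each of the 10 libraries. Ep400/2 and Ep400/3 are blue for most chaperones and red for *Dnajb9*, Kat5/3 is red for most chaperones, and *Herpud1* is blue in all clones together with most of the PERK-ATF4 arm.

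Collagen folding and modification (13 tested) had 0 calls for Kat5 (median −0.00060) and 7 for Ep400 (median −0.12). In Ep400 ko clones the prolyl hydroxylase subunits *P4ha2* and *P4ha1* fell by 1.51 and 1.05 and the chaperone *Fkbp10* by 0.80. *Plod2* and *Serpinh1*, which fell by 1.34 and 0.95, and *Plod1*, which rose by 0.65, are named after their values were seen, and *Crtap* rose by 0.51. Heat shock genes of cytosol and mitochondria (17 tested) had 0 calls for Kat5 by edgeR (median 0.18), with *Hspa1a* called lower by DESeq2 (adjusted p = 0.000120), and 5 for Ep400, all lower (median −0.48). These were *Hspd1* (−1.02), *Hspe1* (−0.86), *Hsp90ab1* (−0.76), *Hspa4* (−0.64) and, named after its value was seen, *Hspa9* (−0.94). *Hspd1*, *Hspe1* and *Hspa9* act in the mitochondrial matrix. With 1 library left out *Hspd1* was called in 3 of 7 fits and each of the others in 2 of 7, and the list had 0 calls in 1 fit of all libraries.

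**Figure D5:**
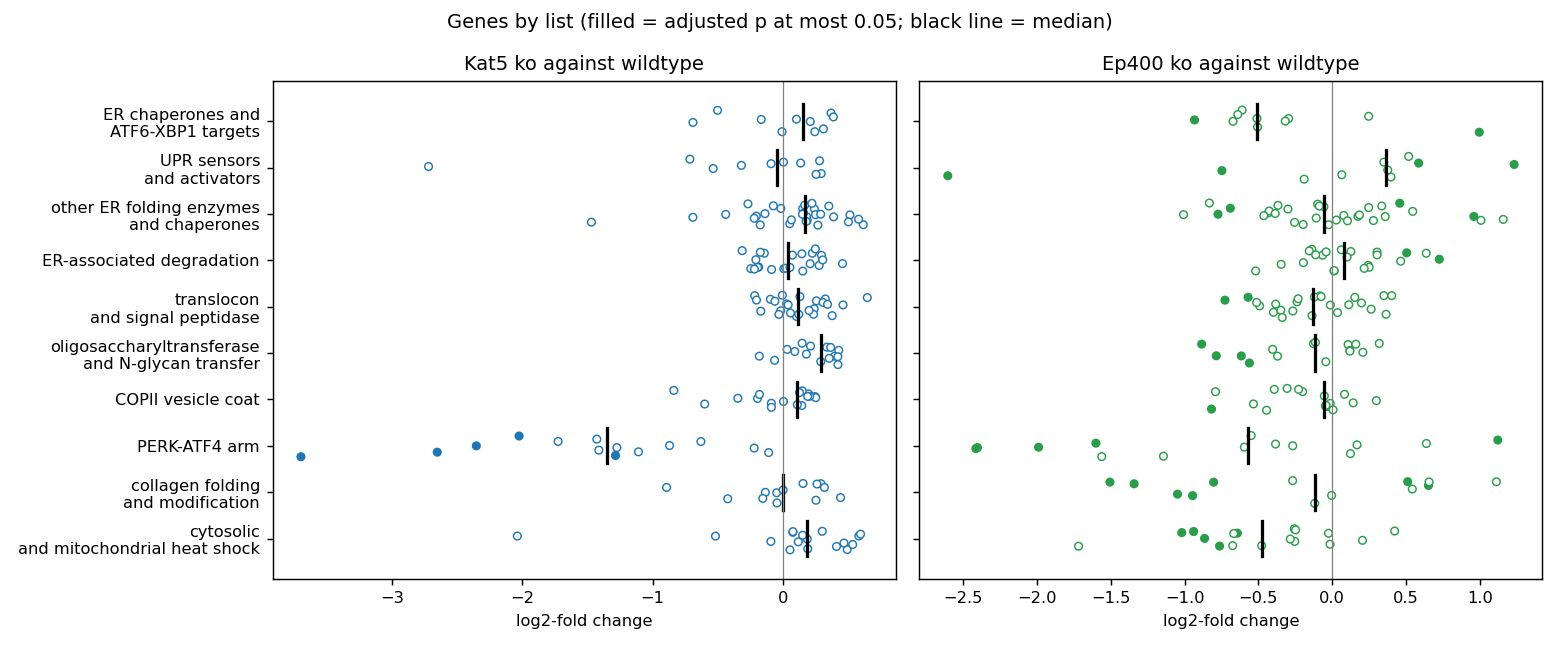
Log2-fold change against wildtype (x axis) of each tested gene of the 10 (top row) and of 9 functional lists, for Kat5 ko (left) and Ep400 ko (right). Filled points passed an adjusted p of 0.05 and black lines are medians. The PERK-ATF4 arm has the lowest median for Kat5 (−1.35), and the 10 genes lie at 0.15 for Kat5 and −0.51 for Ep400.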

How the data were processed

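The table used holds raw counts, deposited by the authors as whole reads per gene from poly-A libraries (stranded kit, per the labels) mapped to mm10. The submitters' processing notes name bcl2fastq 2.20, STAR 2.7.3, DESeq2 1.36.0 and R 4.2.1. The counting program, its annotation and its strand setting are not given in the sources used here, and the normalized tables were not used. R 4.3.3 was used with edgeR 4.0.16, DESeq2 1.42.0 and limma 3.58.1. For each comparison, the libraries of both groups were fitted with edgeR (filterByExpr, TMM, quasi-likelihood test) and p was adjusted after Benjamini-Hochberg over all genes tested. Log2 CPM used a prior count of 2. Lengths and coordinates come from GENCODE M21 (GRCm38). The members and lists were chosen with earlier results of these data known. From each list, up to 4 called genes with the smallest p, or 2 genes if none was called, were eligible to be named, as were the 5 most similar genes, and values are printed for those the text turns on. The procedure was tested on simulated data. Replicate numbers did not pair libraries (correlations −0.0957 to 0.223). A fit with them as a block thus spends degrees of freedom without a pairing, and wildtype sample 4 is alone in its block. A call lost in that fit says little about the gene. Replicates of a group were distinct, with chi-square values of 28.2 to 259 per degree of freedom over 12 pairs. No source says that a clone was grown as several cultures, so p-values measure the spread between clones or samples. Alternatives were DESeq2, limma-voom, other scalings, no filter, a single fit, a replicate block, leaving libraries out in turn and subtraction of chromosome medians.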

Additional observations from a re-analysis of the deposited data

Results flagged for a closer look

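The values below are differences between the knockouts that passed edgeR's direct test of Ep400 ko against Kat5 ko clones. Of 163 list genes tested, 13 passed, with 5 higher (3.07%) and 8 lower (4.91%) in Ep400 ko clones. Over all genes 4.34% were higher and 2.97% lower. Values are printed for the 9 list genes that were also followed in the other fits, and the rest are not named. *Calr* differed by −1.09 on the log2 scale. The targeted genes differed as their labels say, with 1.74 for *Kat5* and −1.65 for *Ep400*. In the lists of the secretory pathway, *Hyou1* differed by −0.995, *Erp29* by −0.961, *Mbtps2* by −1.08, *Magt1* by −1.11, *Mogs* by −1.20 and *Fkbp10* by −1.29, all lower in Ep400 ko clones. *Vldlr* (3.10), *Hspa1a* (1.96) and *Herpud2* (0.88) were higher in Ep400 ko clones. In Kat5 ko clones against wildtype, edgeR called *Vldlr* of these list genes and none of the others. DESeq2 also called *Hyou1* (adjusted p = 0.0392) and *Hspa1a* (0.000120) there. Of these 9 list genes, *Vldlr* was called whichever library was left out. The other 8, like *Calr*, kept the call without Kat5/1 and lost it without any other single clone, and *Kat5* and *Ep400* lost it without Kat5/3, Ep400/2 or Ep400/3.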

How the results depend on the processing

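For Kat5, 0 of the 10 genes were called under all settings with every library, and 0 to 1 with 1 library left out. For Ep400, the 2 calls became 5 with DESeq2 and 0 under a block for the replicate number, and 0 to 4 with 1 library left out. Between the knockouts, the single call became 2 with DESeq2, 3 in 1 fit of all 10 libraries, 0 with library size alone, 0 with the replicate block and 0 to 2 with 1 library left out. Over all genes, calls for Kat5 were 67, 1382 with DESeq2, 245 without a filter on low counts, 26 in 1 fit of all libraries and 0 with the block, and those for Ep400 were 1917, 3177 with DESeq2 and 170 with the block. Between the knockouts they were 994, with 3021 by DESeq2, 1803 without the filter, 3539 in 1 fit of all libraries and 213 with the block. With 1 library left out, calls over all genes ran from 1 (without wildtype sample 1) to 2651 (without Kat5/1) for Kat5, from 826 (without wildtype sample 1) to 2016 (without Ep400/1) for Ep400, and from 4 (without Ep400/3), 5 (without Kat5/3) and 34 (without Ep400/2) to 2537 (without Kat5/1) between the knockouts. With DESeq2's size factors, 1 gene in place of 2 had all Ep400 ko clones above wildtype. Signs turned for values near 0. *Pdia4* for Kat5 was 0.00359 with DESeq2, 0.00212 with RLE factors, 0.0194 in 1 fit of all libraries and 0.000881 with the replicate block, and −0.14 to 0.18 with 1 library left out. Other ranges with 1 library left out that crossed 0 were, for Kat5, −0.038 to 0.46 for *Sdf2l1*, −0.035 to 0.36 for *Hspa5* and −0.043 to 0.28 for *Ep400*, and between the knockouts −0.21 to 0.071 for *Dnajc3*, which was 0.018 with library size alone, and −0.47 to 0.11 for *Xbp1*. The causes were not tested. Subtracting chromosome medians kept the direction of *Dnajb9* (0.99) and *Herpud1* (−0.78) for Ep400. The lowest raw count of any of the 10 genes in a library was 175 (*Sdf2l1* in Ep400/2). For *Hspa5*, the 95% interval of the log2-fold change was −0.25 to 0.66 for Kat5 and −0.81 to 0.22 for Ep400, and a p above the threshold does not show equal levels.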
